A study of Mus musculus with 18 samples.

Results

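The Ifi200 cluster on mouse chromosome 1 was followed across 18 RNA sequencing libraries of 3T3-L1 adipocytes. Its gene models were taken by position: on build mm9 their smallest start and largest end lie within chromosome 1, 175250000 to 176000000, and they hold at least 20 counts over the 18 libraries. Of 17 gene models in that interval 15 met the count minimum, out of 27473 in the whole table. The remaining pair, uc007drg.1 and uc007dso.1, had 0 and 13 counts in all.

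The interval is described as holding Aim2, Ifi203, Ifi204, Mnda and related genes, which encode the mouse PYHIN proteins. Most of these proteins carry a pyrin domain, which binds other pyrin domains, and a HIN domain, which binds DNA. AIM2 senses double-stranded DNA in the cytosol and recruits the adaptor ASC and caspase-1 into an inflammasome, and IFI204 takes part in DNA sensing that leads to interferon through STING. The family takes its name from its induction by interferon. IRF3, the transcription factor altered in these cells, is activated downstream of several nucleic acid and LPS sensors and switches on interferon-beta and other genes.

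Identifiers in the deposited table are those of UCSC known genes, and the gene name tables at hand held 0 of them. The gene models below therefore keep their identifiers and mm9 positions, and none is given a symbol or a function. Neither Irf3 itself nor markers of adipocytes or other cell types were analysed here, for the same reason, so the labels were not checked by them.

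3T3-L1 is a mouse fibroblast line that differentiates into adipocytes in culture. All cells were at passage 15 and had been transduced with lentivirus for 6 days once mature. The 6 groups hold 3 libraries each. Cells labelled as overexpressing Irf3 (Irf3_2D; what 2D stands for is not given) had cells with a green fluorescent protein vector (EGFP) as control. Cells with a short hairpin RNA against Irf3 that were then given LPS for another 6 days (shIrf3_LPS) had cells with a hairpin against luciferase and LPS (shLuc_LPS) as control, and the same hairpins without LPS are shIrf3 and shLuc. LPS, lipopolysaccharide, comes from the outer membrane of bacteria and is sensed through TLR4. The labels leave out how long cells without LPS stayed in culture, and the effects of LPS and of culture time cannot be told apart. No label ties the 3 libraries of a group to separate cultures, and p-values then reflect only how these libraries vary, which may be technical.

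Total counts ran from 22143302 to 34368259 per library, of which 2828 to 24313 fell on the 15 gene models. Some libraries stood apart. Mitochondrial gene models took 14.2% of the counts in shLuc replicate 1, against at most 7.17% in the other 17 libraries. Replicates differed beyond sampling noise in all 18 pairs, at 3.38 to 349.9 in chi-square over its degrees of freedom, the highest between shLuc replicates 1 and 2. In EGFP replicate 1, 8 of the 9 gene models described singly were the highest of their group, with a median of 1.84 times the mean of the other EGFP libraries. Of 12575 gene models at 1 CPM or more, 1.42% had a ratio that large. In shIrf3 replicate 2, 7 of 9 were the highest of their group and the median ratio was 1.30, reached by 2.19% of 12576. For the 9 gene models described singly, a call that changes when any of these libraries is left out is stated beside the result. So is a called ratio that moves by over 1.5 times.

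Promoter sequences of the family are shown because its members moved together in several comparisons. They come from RefSeq on build GRCm38.p6, were matched by symbol and not by position, and belong to no particular gene model of the table. Of 13 family symbols 12 had an entry, with 14 promoters of 250 bases before and 50 after the transcript start. Each was searched on both strands for the core of the interferon-stimulated response element, the element bound by interferon regulatory factors and by the interferon-activated STAT complex, spelled GAAANNGAAA. It occurred in 10 of the 14 promoters (71.4%), from 9 genes, against 3.44% of 32851 mouse promoters of the same length. The 14 are not independent: those of Mndal overlap each other, as do those of Ifi203, and some others are near copies. The gamma-activated sequence TTCNNNGAA, which STAT dimers bind, was found in 1 of 14 (7.14%) and in 8.30% of all promoters. That 1 match was in Ifi202b, whose promoter had no match to the core. The matches to the core are given below, 5′ to 3′ along each gene, with the core in capitals and 15 bases on either side.

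Ifi206, chr1:173491334-173491373, minus strand: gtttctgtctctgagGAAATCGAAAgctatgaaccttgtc

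Ifi214, chr1:173536012-173536051, minus strand: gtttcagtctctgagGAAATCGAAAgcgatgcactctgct

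Ifi213, chr1:173599321-173599360, minus strand: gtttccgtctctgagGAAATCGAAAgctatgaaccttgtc

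Ifi208, chr1:173673592-173673631, plus strand: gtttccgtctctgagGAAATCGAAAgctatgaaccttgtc

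Ifi207, chr1:173741826-173741865, minus strand: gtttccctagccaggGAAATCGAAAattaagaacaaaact

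Mndal, chr1:173880199-173880238, minus strand: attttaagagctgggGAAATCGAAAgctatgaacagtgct

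Mndal, promoter 2 of the table, chr1:173879988-173880027, minus strand: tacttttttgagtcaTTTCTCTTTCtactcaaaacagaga

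Ifi211, chr1:173913059-173913098, minus strand: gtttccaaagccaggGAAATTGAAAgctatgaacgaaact

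Ifi203, promoter 2 of the table, chr1:173942503-173942542, minus strand: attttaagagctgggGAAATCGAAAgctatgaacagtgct

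Ifi205, match upstream of the start, chr1:174031865-174031904, minus strand: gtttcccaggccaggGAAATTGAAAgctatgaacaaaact

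Ifi205, match downstream of the start, chr1:174031708-174031747, minus strand: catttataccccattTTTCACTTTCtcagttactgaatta

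Of these 11 matches 7 have the core GAAATCGAAA, 2 have GAAATTGAAA, and the other two lie on the strand opposite to the gene. The 9 that run with the gene begin between 134 and 35 bases before the start, and the whole 40 bases shown are the same in Ifi213 and Ifi208 and in Mndal and Ifi203. The promoters of Aim2, Ifi209 and Ifi202b and promoter 1 of Ifi203 had no match. In Ifi209 the closest stretch to GAAATCGAAA, in capitals here, differs from it by G1T, counted from the first base of the core:

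Ifi209, chr1:173630765-173630804, plus strand: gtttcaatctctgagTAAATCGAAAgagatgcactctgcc

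Whole promoters of Aim2, without the core, and Ifi203, with it, show the longer context:

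Aim2, whole promoter, chr1:173420354-173420653, plus strand: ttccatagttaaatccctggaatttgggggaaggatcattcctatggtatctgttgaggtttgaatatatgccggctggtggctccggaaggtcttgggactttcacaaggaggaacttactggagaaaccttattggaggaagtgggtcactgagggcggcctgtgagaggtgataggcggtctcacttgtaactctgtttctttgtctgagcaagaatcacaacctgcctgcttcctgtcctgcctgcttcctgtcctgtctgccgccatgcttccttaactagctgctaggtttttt

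Ifi203, whole promoter, chr1:173942443-173942742, minus strand: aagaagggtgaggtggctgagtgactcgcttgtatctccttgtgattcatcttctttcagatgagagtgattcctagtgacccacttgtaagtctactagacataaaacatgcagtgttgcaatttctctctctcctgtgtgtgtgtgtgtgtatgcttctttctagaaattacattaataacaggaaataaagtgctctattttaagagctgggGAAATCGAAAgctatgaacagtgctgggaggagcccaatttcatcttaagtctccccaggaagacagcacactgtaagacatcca

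A match is a stretch of letters and not a shown binding site. Close copies also bear on the counts: between 0% and 72.8% (median 15.8%) of the 50-base words in a family member's GENCODE M21 transcripts also occur in another member's. Reads from such stretches could be lost or split between gene models, so the level of any single gene model is uncertain where the copies are alike.

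Levels differed widely along the interval. Over the 18 libraries 9 of the 15 gene models averaged at least 1 CPM, the share of a library's counts scaled by the trimmed mean of M-values (TMM) over all 18 libraries, and these 9 are described singly. The other six, uc007dri.1, uc007drn.2, uc007drp.1, uc007drq.2, uc011wwu.1 and uc007dsn.2, averaged between 0.0798 and 0.973 CPM. Per kilobase of exon, uc007dsk.2 had the highest level at 45.5 CPM per kb, followed by uc007drw.1 at 14.2, uc011wwv.1 at 10.4, uc007dsg.1 at 8.77, uc011wws.1 at 8.57, uc011www.1 at 6.80, uc007drz.2 at 3.12, uc007dsm.2 at 1.07 and uc007drt.1 at 0.771. Nearly all the signal thus came from the later part of the interval and from uc011wws.1 near its beginning. The gene models uc007drw.1 and uc007drz.2 overlap in span on the same strand and share 0 exon bases.

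**Figure D1:**
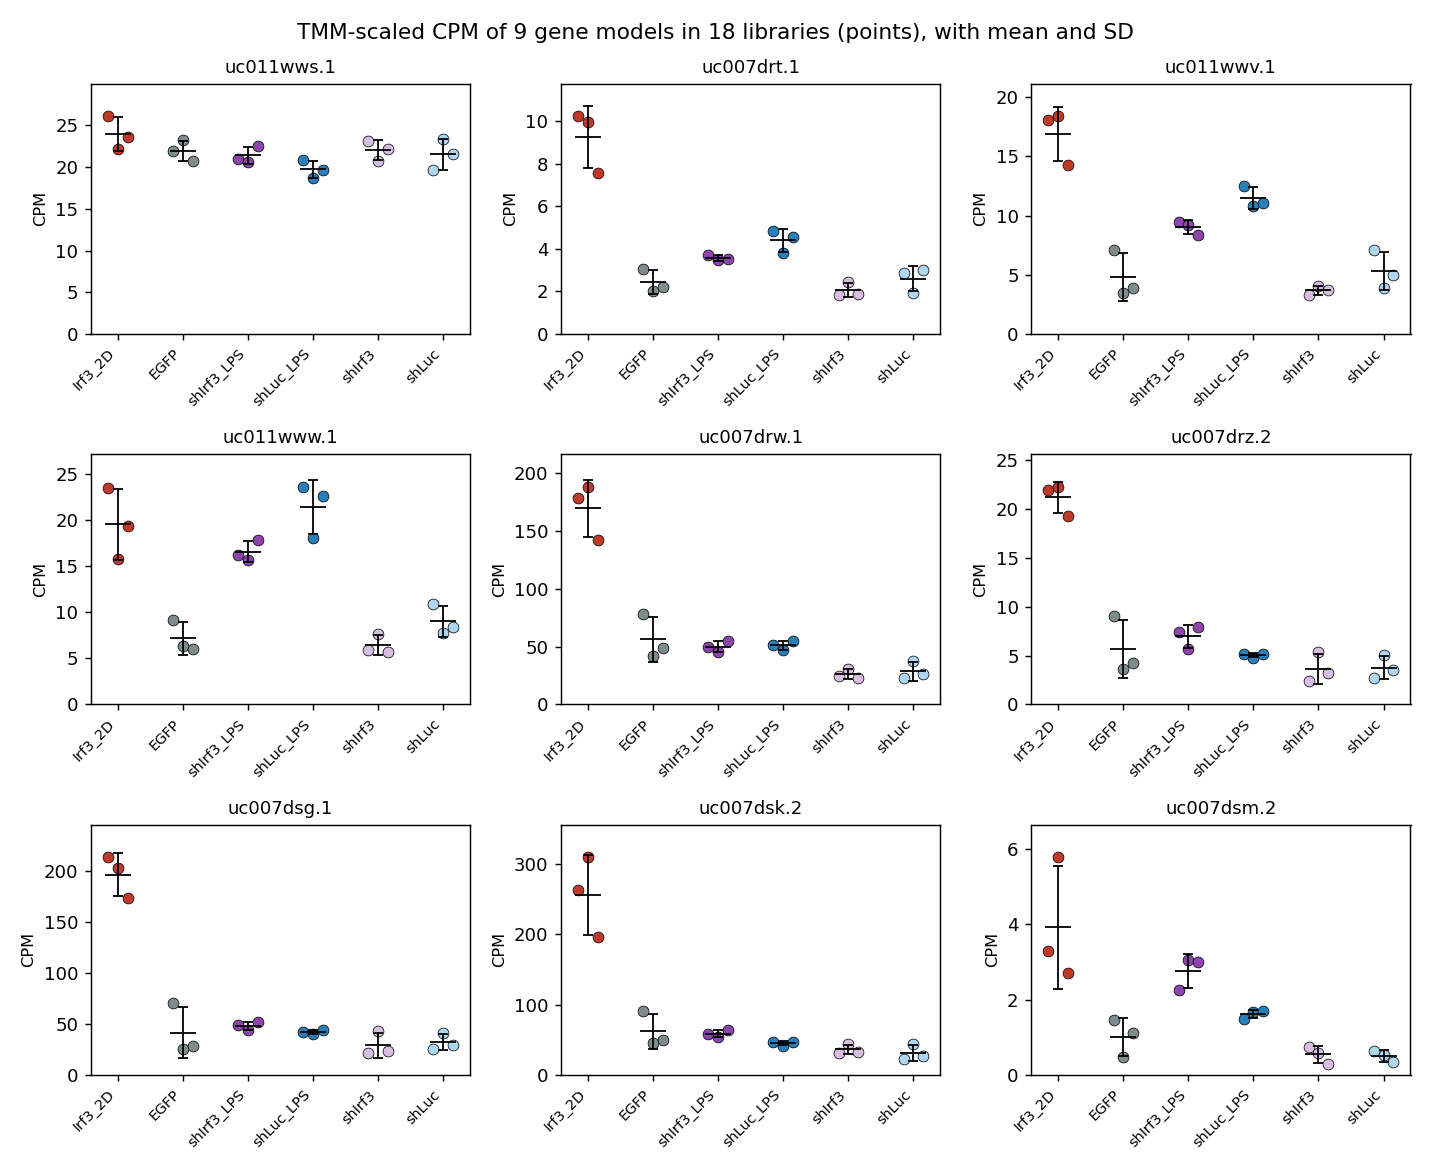
TMM-scaled CPM (vertical axes, from 0) of the 9 gene models described singly in the 6 groups (horizontal axes); points are libraries, dashes are means and bars are SD (n = 3). The Irf3_2D libraries lie above all 3 EGFP libraries in every panel but that of uc011wws.1, whose 18 values stay between 18.7 and 26.1 CPM.

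Overexpression of Irf3 went with higher levels of most of the cluster. Relative to EGFP, 7 of the 10 gene models tested rose in Irf3_2D cells, by 2.72 to 4.72 times, and 0 fell. Across all 13931 gene models tested 0.811% were higher by the same test, edgeR's quasi-likelihood test at an adjusted p under 0.05, and 0.639% lower. Over the 10 the median log2 fold change was 1.86, against 0.02 over all. The 7 that rose are consecutive, in places 7 to 13 of the 15, and span 309165 bases of chromosome 1 (mm9 175603811 to 175912975). The ends of this run depend on the count filter and the threshold. Just before it, uc011wwu.1 had 28 counts in Irf3_2D and 12 in EGFP and was not tested. Just after it, uc007dsm.2 missed the threshold. The summed level of the 15 gene models was 719 ± 105 CPM in Irf3_2D and 204 ± 77.2 CPM in EGFP (SD, n = 3 each). In bulk RNA, more cells expressing a gene and more RNA per cell cannot be told apart.

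The most abundant gene model, uc007dsk.2 (mm9 chromosome 1, 175892700 to 175912975, minus strand, 7 exons), had 263, 309.7 and 196 CPM in the Irf3_2D libraries, against 91.0, 45.2 and 49.9 CPM in the EGFP libraries. All 3 Irf3_2D libraries were above all 3 EGFP libraries, and EGFP replicate 1 was the highest of its group. The log2 fold change was 2.04 with a standard error of 0.28 (edgeR adjusted p = 0.0180).

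Its neighbour uc007dsg.1 (175850534 to 175872623, minus strand, 9 exons) showed the largest ratio of the 7. It had 214, 203 and 173 CPM in Irf3_2D, against 70.3, 25.5 and 29.0 CPM in EGFP. The groups did not overlap, although EGFP replicate 1 was more than 2 times the other EGFP libraries. The log2 fold change was 2.24 ± 0.35 (SE, edgeR adjusted p = 0.0208), and 2.85 without EGFP replicate 1. This call ended in 6 of 12 alternatives, among them the fit with all libraries and no low-count filter (edgeR adjusted p = 0.117), where uc007dsm.2 passed in its place.

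The long gene model uc007drw.1 (175677425 to 175844310, minus strand, 18 exons) had 178, 188 and 142 CPM in Irf3_2D, against 78.5, 41.7 and 48.4 CPM in EGFP. Inside its span, uc007drz.2 (175787351 to 175810318, minus strand, 11 exons) had 22, 22.3 and 19.3 CPM in Irf3_2D and 9.02, 3.66 and 4.29 CPM in EGFP. For both, the lowest Irf3_2D library was above the highest EGFP library, which was again replicate 1. Their log2 fold changes were 1.59 ± 0.23 and 1.90 ± 0.31 (SE, edgeR adjusted p = 0.0196 and 0.0230).

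The other 3 gene models of the consecutive run lie at its start. The gene model uc007drt.1 (175603811 to 175628523, plus strand, 6 exons) had 10.2, 9.95 and 7.56 CPM in Irf3_2D, against 3.06, 2.00 and 2.21 CPM in EGFP, a fitted log2 change of 1.93 ± 0.23 (SE; edgeR adjusted p = 0.0122). Next along the chromosome, uc011wwv.1 (175653815 to 175659154, minus strand, 4 exons) had 18.1, 18.4 and 14.3 CPM in Irf3_2D, against 7.13, 3.49 and 3.85 CPM in EGFP (log2 fold change 1.81, edgeR adjusted p = 0.0196). Next to it, uc011www.1 (175659534 to 175671878, minus strand, 5 exons) had 23.5, 15.8 and 19.4 CPM in Irf3_2D, against 9.22, 6.33 and 6.01 CPM in EGFP. It had the smallest change of the 7, a fitted log2 change of 1.44 ± 0.22 (SE; edgeR adjusted p = 0.0204).

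Outside the run, uc007dsm.2 (175942129 to 175961886, minus strand, 7 exons) missed the threshold. It had 3.28, 5.79 and 2.71 CPM in Irf3_2D, against 1.45, 0.474 and 1.11 CPM in EGFP, a fitted log2 change of 1.96 ± 0.42 (SE; edgeR adjusted p = 0.0646). Its groups did not overlap, so that 8 of the 10 gene models tested were without overlap and higher in Irf3_2D and 0 lower, against 8.35% and 8.24% of all gene models tested. DESeq2 called it, and 8 of the 10, against 236 higher of all 13931 gene models. Without EGFP replicate 1 edgeR called it too (log2 fold change 2.33, edgeR adjusted p = 0.0432). By contrast uc011wws.1 (175350735 to 175396167, plus strand, 9 exons) had 26.1, 22.1 and 23.6 CPM in Irf3_2D and 21.9, 23.2 and 20.7 CPM in EGFP, with overlap (log2 fold change 0.12 ± 0.13, SE, edgeR adjusted p = 0.866). The remaining gene model tested, uc007drp.1, had a fitted log2 change of 0.32 ± 0.29 (SE; edgeR adjusted p = 0.829).

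These calls depend on single libraries, while the median change stayed between 1.59 and 2.13 on the log2 scale. Without EGFP replicate 1, 8 of 11 gene models tested were higher, against 170 of 14216 in all, and the median log2 fold change was 2.13. Without Irf3_2D replicate 2 there were 5, against 473 of 14226 in all. Without Irf3_2D replicate 3 there were 4, against 41 of 14172 in all. Without Irf3_2D replicate 1, EGFP replicate 2 or EGFP replicate 3 there were 0. In those 3 fits edgeR called 4, 1 and 0 gene models higher in the whole table, and the cluster's median log2 fold change was 1.80, 1.60 and 1.67. On either side of the interval, in stretches of the same length, 4 gene models were tested and 0 were called, with 0 at an unadjusted p under 0.05 and log2 fold changes from -0.50 to 0.44. With so small a share called in the whole table, 0 calls of 4 says little.

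**Figure D2:**
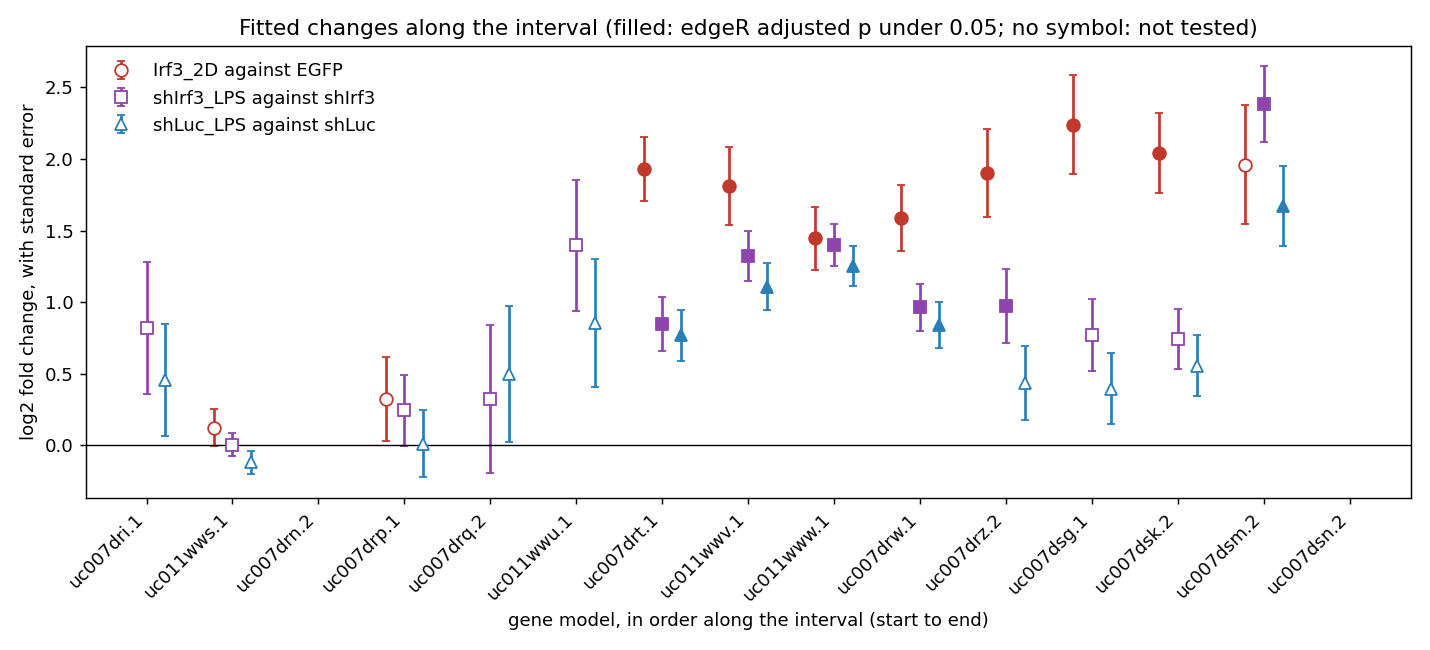
Fitted log2 fold changes (vertical axis) with standard errors for the 15 gene models in their order along the interval (horizontal axis), for Irf3_2D against EGFP and for LPS in each hairpin. Filled symbols passed an edgeR adjusted p under 0.05; the 7 filled circles are consecutive, and uc011wws.1 stays within 0.12 of 0 in all 3 comparisons.

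With LPS, gene models of the cluster rose in cells with either hairpin. In the knockdown cells 6 of 13 gene models tested rose with LPS, against 4.17% of all 14970, and in the luciferase control cells 5 of 13 rose, against 4.27% of all. Among all gene models 3.84% and 4.45% were lower in these comparisons. The same 5 were called in both: uc007drt.1, uc011wwv.1, uc011www.1, uc007drw.1 and uc007dsm.2. In neither did a member fall by edgeR or by DESeq2. Of the 4 gene models tested on either side of the interval, 1 was lower by edgeR in each comparison and 0 were higher. The median log2 fold change of the 13 was 0.85 in knockdown cells and 0.56 in control cells, against 0.00 and -0.01 over all gene models. The summed level was 220 ± 15.9 CPM in shIrf3_LPS and 132 ± 24.8 CPM in shIrf3, and 205 ± 13.3 CPM in shLuc_LPS and 137 ± 26.9 CPM in shLuc (SD, n = 3 each).

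The strongest response to LPS was that of uc007dsm.2. It had 2.25, 3.07 and 3.01 CPM in shIrf3_LPS, against 0.746, 0.589 and 0.303 CPM in shIrf3. In the control cells it had 1.49, 1.67 and 1.70 CPM in shLuc_LPS and 0.637, 0.532 and 0.339 CPM in shLuc. Every LPS library was above every library without LPS. It rose 5.21 times in knockdown cells (log2 fold change 2.38 ± 0.26, SE, edgeR adjusted p = 1.65e-05) and 3.19 times in control cells (1.67 ± 0.28, edgeR adjusted p = 0.000817). Its counts without LPS were low, with 44 and 43 over the 3 libraries of shIrf3 and of shLuc.

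The adjacent pair uc011www.1 and uc011wwv.1 followed. For uc011www.1 the values were 16.3, 15.7 and 17.8 CPM in shIrf3_LPS, against 5.97, 7.69 and 5.75 CPM in shIrf3, and 23.6, 18.1 and 22.6 CPM in shLuc_LPS, against 10.9, 7.77 and 8.39 CPM in shLuc. The groups with and without LPS were well apart in both kinds of cell. Its log2 fold change was 1.4 ± 0.15 in knockdown cells (SE, edgeR adjusted p = 9.43e-06) and 1.25 ± 0.14 in control cells (edgeR adjusted p = 1.59e-05). For uc011wwv.1 the values were 9.44, 9.24 and 8.33 CPM in shIrf3_LPS, against 3.32, 4.09 and 3.71 CPM in shIrf3, and 12.5, 10.8 and 11.1 CPM in shLuc_LPS, against 7.07, 3.86 and 5.00 CPM in shLuc. It was 2.50 times higher with LPS in knockdown cells and 2.16 times higher in control cells (edgeR adjusted p = 9.99e-05 and 0.000282).

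Both uc007drw.1 and uc007drt.1 rose as well. The long gene model uc007drw.1 had 49.3, 45.4 and 54.7 CPM in shIrf3_LPS, against 24.9, 31.0 and 23.2 CPM in shIrf3, and 51.2, 47.1 and 54.9 CPM in shLuc_LPS, against 22.4, 37.8 and 26.0 CPM in shLuc. The groups with and without LPS did not overlap in either kind of cell, and shLuc replicate 2 came closest. Its ratios were 1.95 and 1.79 (edgeR adjusted p = 0.00301 and 0.00601). For uc007drt.1 the values were 3.73, 3.48 and 3.53 CPM in shIrf3_LPS, against 1.82, 2.42 and 1.89 CPM in shIrf3, and 4.84, 3.80 and 4.56 CPM in shLuc_LPS, against 2.85, 1.91 and 3.01 CPM in shLuc. The ratios were 1.80 and 1.70 (edgeR adjusted p = 0.00831 and 0.00968), and the second call ended without shLuc_LPS replicate 1 (log2 fold change 0.68) and in the fit of the 6 libraries compared (0.77).

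Neither uc007dsk.2 nor uc007dsg.1 passed with LPS in either kind of cell. For uc007dsk.2 the values were 58.2, 54.6 and 63.6 CPM in shIrf3_LPS, against 31.9, 44.0 and 32.8 CPM in shIrf3 (log2 fold change 0.74 ± 0.21, SE, edgeR adjusted p = 0.0621). In control cells it had 47.1, 41.8 and 47.4 CPM in shLuc_LPS, against 22.3, 44.3 and 26.8 CPM in shLuc (0.56 ± 0.21, edgeR adjusted p = 0.158). The library shLuc replicate 2 lay among the LPS libraries. Without it the difference in control cells passed (log2 fold change 0.87, edgeR adjusted p = 0.00159). That in knockdown cells passed without shIrf3 replicate 2 (0.90, edgeR adjusted p = 0.0478), without shLuc replicate 1 or 2, with only the 6 libraries compared and by DESeq2. For uc007dsg.1 the values were 48.9, 44.2 and 52.2 CPM in shIrf3_LPS, against 21.3, 43.3 and 23.2 CPM in shIrf3, and 42.5, 40.6 and 44.2 CPM in shLuc_LPS, against 25.9, 41.6 and 29.9 CPM in shLuc. Again replicate 2 of each untreated group lay near the LPS libraries. Neither difference passed (edgeR adjusted p = 0.101 and 0.433), and that in knockdown cells did without shIrf3 replicate 2 (log2 fold change 1.16, edgeR adjusted p = 0.000284) and by DESeq2 (0.77, DESeq2 adjusted p = 0.0448).

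The gene model uc007drz.2 passed in knockdown cells only by a little, with 7.37, 5.64 and 7.92 CPM in shIrf3_LPS and 2.36, 5.34 and 3.18 CPM in shIrf3 (log2 fold change 0.97 ± 0.26, SE, edgeR adjusted p = 0.0332). This call ended in 11 of 19 alternatives, with log2 fold changes from 0.75 to 1.37 over all 19. In control cells it had 5.21, 4.78 and 5.18 CPM in shLuc_LPS and 2.71, 5.07 and 3.50 CPM in shLuc, with overlap (edgeR adjusted p = 0.383). With LPS uc011wws.1 overlapped its level without, at 21.0, 20.6 and 22.6 CPM in shIrf3_LPS and 23.1, 20.7 and 22.2 CPM in shIrf3, and at 20.8, 18.7 and 19.6 CPM in shLuc_LPS and 19.6, 23.3 and 21.6 CPM in shLuc. Counting gene models without overlap gives 9 of 13 higher with LPS in knockdown cells, against 13.0% of all, and 5 of 13 in control cells, against 9.99%. None was lower without overlap in either, against 26.7% and 11.5% of all.

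Within a group, the spread between libraries was set beside that of all gene models. The median coefficient of variation of the 9 gene models was 7.66% in shIrf3_LPS and 7.09% in shLuc_LPS, against 16.5% in shIrf3 and 27.9% in shLuc. Over the 12576 gene models at 1 CPM or more it was 5.85% and 5.01% with LPS and 4.73% and 12.3% without. In the overexpression arm it was 14.4% for the 9 in Irf3_2D and 40.7% in EGFP, against 15.7% and 10.7% over all. No test of these spreads was made.

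Few gene models of the cluster passed the test for knockdown of Irf3, with or without LPS. Without LPS, 0 of 13 gene models of the cluster passed in shIrf3 against shLuc by edgeR. Of all gene models 4.65% were higher and 3.91% lower, so 0 calls of 13 does not set the cluster apart. At an unadjusted p under 0.05 there were 2 of 13, uc011www.1 and uc011wwv.1, against 3447 of all 14970. DESeq2 called both lower, among 683 lower of 12936 gene models in all. The median log2 fold change of the 13 was -0.16. For uc011www.1 the shIrf3 libraries, at 5.97, 7.69 and 5.75 CPM, were all below the shLuc libraries, at 10.9, 7.77 and 8.39 CPM, a fitted log2 change of -0.49 ± 0.15 (SE; edgeR adjusted p = 0.0549). It was the only member without overlap, and 10.2% of all gene models were without overlap and lower, 13.4% higher. For uc011wwv.1 the log2 fold change was -0.54 ± 0.18 (SE, edgeR adjusted p = 0.0814). For uc007dsk.2 the values were 31.9, 44.0 and 32.8 CPM in shIrf3 and 22.3, 44.3 and 26.8 CPM in shLuc, with overlap (log2 fold change 0.21 ± 0.21, SE, edgeR adjusted p = 0.623). Without shLuc replicate 2, 3 members passed: uc007dsk.2 was higher, at a log2 fold change of 0.54, and uc011www.1 and uc011wwv.1 were lower, at -0.60 and -0.73. That fit called 1175 of all 15178 gene models higher and 888 lower. Without shLuc replicate 1, the library with the most mitochondrial counts, uc011www.1 and uc011wwv.1 were at -0.31 and -0.25 (edgeR adjusted p = 0.146 and 0.291). Without shIrf3 replicate 2 the median log2 fold change was -0.44 and 1 member, uc011www.1, was lower (-0.64, edgeR adjusted p = 0.0389). Of all 15189 gene models in that fit 366 were higher and 299 lower.

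Under LPS, 1 of 13 gene models rose in shIrf3_LPS against shLuc_LPS, with 4.9% of all gene models higher and 3.31% lower. This was uc007dsm.2, with 2.25, 3.07 and 3.01 CPM in shIrf3_LPS and 1.49, 1.67 and 1.70 CPM in shLuc_LPS, a fitted log2 change of 0.79 ± 0.22 (SE; edgeR adjusted p = 0.0344). The call ended in 6 of 19 alternatives, among them the omission of any 1 shLuc_LPS library, of shIrf3_LPS replicate 2 or of shIrf3_LPS replicate 3. In each of the 19 the log2 fold change lay between 0.71 and 0.92. At the shares called in the whole table, 1 call of 13 does not set the cluster apart.

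Of the 13 members tested under LPS, 3 lay below the control libraries, 4 above, and 6 overlapped them. In shIrf3_LPS the 3 neighbours uc007drt.1, uc011wwv.1 and uc011www.1 were below all shLuc_LPS libraries, with log2 fold changes of -0.27 ± 0.17, -0.32 ± 0.16 and -0.35 ± 0.13 (SE). The 4 at the other end, uc007drz.2, uc007dsg.1, uc007dsk.2 and uc007dsm.2, had no library below the shLuc_LPS libraries, at 0.49 ± 0.25, 0.22 ± 0.25, 0.40 ± 0.21 and 0.79 ± 0.22 (SE). For uc007dsg.1 the margin was nil at this precision, with 44.2 CPM in its lowest shIrf3_LPS library and in the highest shLuc_LPS library. Between them uc007drw.1 overlapped, at -0.01 ± 0.16. All members tested before uc007drt.1 overlapped too, and its neighbour uc011wwu.1 was at 0.31 ± 0.38 (SE). Groups without overlap were found for 20.8% of all gene models lower and 14.9% higher, so the 3 lower of 13 are close to the share in the table. The 4 higher, which include uc007dsg.1 by a nil margin, are above it. No test of these counts was made. Only uc007dsm.2 passed the adjusted test. Without shLuc replicate 1 uc011www.1 also passed, at -0.34, and without shLuc replicate 2 uc007dsk.2 did, at 0.41 (edgeR adjusted p = 0.0455 and 0.0354). The first fit called 1185 of all 15188 gene models higher and 865 lower, and the second 1329 and 910 of 15178. Fitted from the 6 libraries compared alone, uc007drz.2, uc007dsg.1, uc007dsk.2 and uc007dsm.2 were higher and uc011wwv.1 and uc011www.1 lower (edgeR adjusted p under the threshold for each), in a fit that called 1495 gene models higher and 1353 lower in all.

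**Figure D3:**
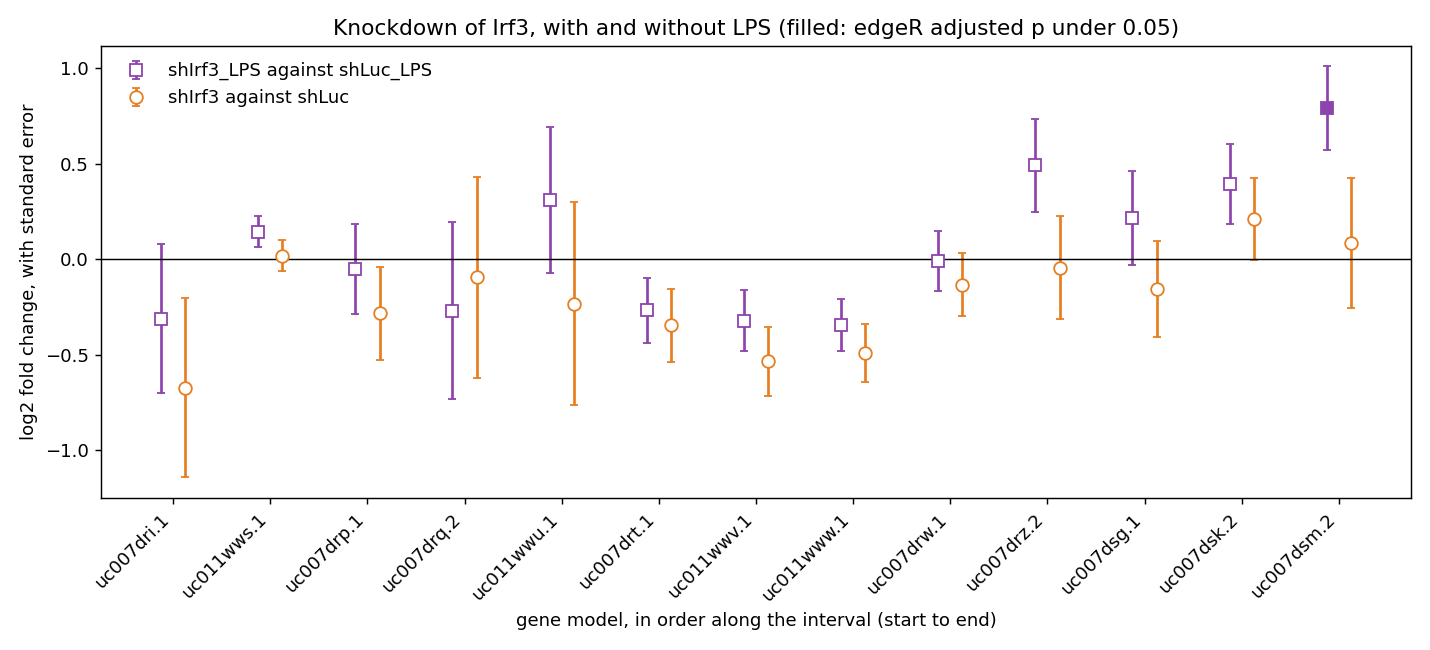
Fitted log2 fold changes of knockdown (vertical axis) with standard errors for the 13 gene models tested, in order along the interval (horizontal axis), with LPS (squares) and without (circles). Of the 26 values only that of uc007dsm.2 under LPS, 0.79, passed the adjusted test (filled).

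The response to LPS was then compared between knockdown and control cells by the interaction of both factors. By edgeR 0 of 13 gene models passed, 0 had an unadjusted p under 0.05, and DESeq2 called 0 of 8. In the whole table edgeR called 0 of 14970 (0%), with 848 at an unadjusted p under 0.05, and DESeq2 called 10 higher and 5 lower. The interaction of uc007dsm.2 was 0.71 ± 0.41 and that of uc007drz.2 0.54 ± 0.36 on the log2 scale (SE, edgeR adjusted p = 0.930 and 0.947). For uc007dsk.2 it was 0.18 ± 0.30 and for uc011www.1 0.15 ± 0.20 (SE). With such errors a difference in response of the size of these values could not be told from 0.

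The make-up of the cluster was set side by side between groups, and no test of it was made. The share of the interval's CPM held by uc007dsk.2 and uc007dsg.1 was 35.3% ± 3.18 and 27.5% ± 1.78 in Irf3_2D, against 30.1% ± 0.816 and 19.3% ± 4.05 in EGFP (SD, n = 3 each). The gene model uc011wws.1 held 3.38% ± 0.581 in Irf3_2D and 11.7% ± 3.89 in EGFP, while its own CPM overlapped between these groups. With LPS the share of uc011www.1 was 7.55% ± 0.115 in shIrf3_LPS, against 4.92% ± 0.156 in shIrf3, and 10.4% ± 0.828 in shLuc_LPS, against 6.86% ± 2.36 in shLuc. In single libraries the share of uc011www.1 ran from 4.64% to 9.33% in shLuc and from 9.52% to 11.1% in shLuc_LPS. These shares are of one sum and are not independent of each other.

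**Figure D4:**
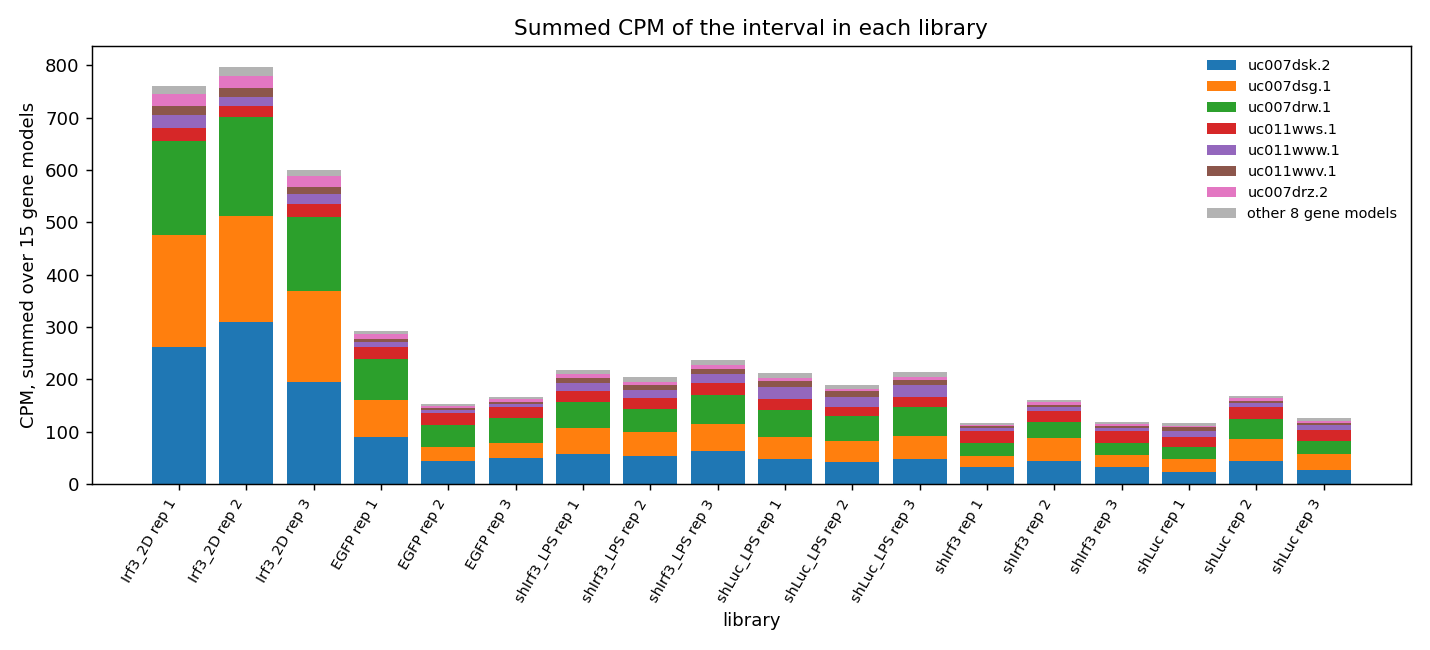
Summed TMM-scaled CPM of the 15 gene models (vertical axis, from 0) in each of the 18 libraries (horizontal axis), stacked by gene model. The 3 Irf3_2D libraries reach 600.4 to 797 CPM, EGFP replicate 1 reaches 293 CPM, and the 6 libraries with LPS lie between 189.9 and 236 CPM, above those of the same hairpin without LPS.

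The profile over the 6 groups was compared with that of uc007dsk.2, by the root mean square difference between group means of log2 CPM, each centred on its own mean. Within the cluster uc007drz.2, uc007dsg.1 and uc007drw.1 were nearest, at 0.21, 0.23 and 0.25, while uc011www.1 and uc011wws.1 were farthest, at 0.87 and 0.94. Among 12567 gene models outside the interval with at least 1 CPM, the nearest were uc008ezy.2 on chromosome 18 at 0.17 and uc008rov.1 on chromosome 3 at 0.19. The gene model uc008ezy.2 had 195 ± 44.0 CPM in Irf3_2D and 49.2 ± 23.3 CPM in EGFP. For uc008rov.1 the values were 453 ± 39.2 CPM in Irf3_2D and 94.2 ± 78.4 CPM in EGFP (SD, n = 3 each). These are the closest of many and were found by this search, so no test of the likeness was made.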

How the data were processed

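RNA was sequenced from 18 libraries of 3T3-L1 adipocytes, which the sample titles place in 6 groups of 3. The input was 70 ng of RNA, depleted of ribosomal RNA, and the TruSeq RNA v2 kit used keeps no strand information, per the labels' protocols. The submitters' processing notes name featureCounts 1.4.6, TopHat2 2.0.14, SAMtools 0.1.19, bcl2fastq 2.17.1.14, edgeR and Picard 2.2.4, and build mm9; how reads with several matches were treated is not given in the sources used here. Raw counts of reads for each gene model, not normalized, are what the authors deposited. The members and lists were chosen with earlier results of these data known.

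Tests on counts used edgeR 4.0.16 in R 4.3.3, by quasi-likelihood F (robust fit, filterByExpr by group, TMM scaling) and Benjamini-Hochberg adjustment over all gene models tested, at 0.05. One fit took the 6 libraries of overexpression and its control, and another the 12 of the hairpins. Of the 15 members 10 and 13 passed the low-count filter. Standard errors are the log2 fold change over the square root of F. CPM values were scaled by TMM factors over all 18 libraries, and log2 CPM used a prior count of 2. Both edgeR and DESeq2 1.42.0 were tested on simulated data. Alternatives were DESeq2, RLE factors, library totals, no low-count filter, the replicate block, all 18 libraries in one fit, only the 6 libraries compared, and each library left out. Values in each library are given for the 6 members with the highest mean CPM and any other called.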

Additional observations from a re-analysis of the deposited data

How the results depend on the processing

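Of 953 values of single gene models under the alternatives, 878 kept their side of the threshold, 47 lost a call and 28 gained one. No called value changed direction, and 25 values within 0.23 of 0 on the log2 scale changed sign without a call. For overexpression the alternatives with all libraries kept called 7 or 8 members higher, and leaving out 1 library gave 0 to 8. For LPS, leaving out 1 library gave 5 to 8 members higher in knockdown cells and 4 to 6 in control cells. For knockdown without LPS, DESeq2 called 2 members lower and edgeR without the low-count filter 1, and leaving out 1 library gave 0 to 1 higher and 0 to 2 lower. For knockdown under LPS, all 18 libraries in one fit gave 0 higher, the 6 libraries compared alone gave 4 higher and 2 lower, and leaving out 1 library gave 0 to 2 higher and 0 to 1 lower. The cause of these moves was not tested. With the replicate block the numbers of members called were 7 for overexpression, 0 and 1 for knockdown without and with LPS, 6 and 5 for LPS in knockdown and control cells, and 0 for the interaction. The block changed no such number. Replicate numbers did not pair the samples: same-numbered libraries deviated together with correlations from -0.19 to 0.22. The 6 members under 1 CPM had 40 to 486 counts over all 18 libraries, which limits what could be detected in them.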

Other observations

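The control vectors of the arms can be set side by side, though they share no fit in the comparisons above. On the scale common to all 18 libraries, uc007drw.1 had 78.5, 41.7 and 48.4 CPM in EGFP and 22.4, 37.8 and 26.0 CPM in shLuc. For uc007dsk.2 the values were 91.0, 45.2 and 49.9 CPM in EGFP and 22.3, 44.3 and 26.8 CPM in shLuc. EGFP replicate 1, which stood apart, was the highest in both, and the other EGFP libraries were also above all 3 shLuc libraries. The share of all gene models without such overlap was not counted. For uc007dsg.1 the groups overlapped, with 70.3, 25.5 and 29.0 CPM in EGFP and 25.9, 41.6 and 29.9 CPM in shLuc. Those of uc007drz.2 overlapped too, with 9.02, 3.66 and 4.29 CPM in EGFP and 2.71, 5.07 and 3.50 CPM in shLuc. In the other direction, uc011www.1 had 9.22, 6.33 and 6.01 CPM in EGFP and 10.9, 7.77 and 8.39 CPM in shLuc, with overlap. Vector and arm cannot be told apart here, and no test was made.

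The gene model uc007drn.2 had 14 counts over the 3 Irf3_2D libraries and 5 over the 3 EGFP libraries. It had 8 counts in shIrf3_LPS and 3 in shIrf3, and 10 counts in shLuc_LPS and 1 in shLuc. It did not pass the low-count filter and was not tested. For uc011wwu.1, tested in the knockdown and LPS arm, the counts were 37 in shIrf3_LPS and 14 in shIrf3, with a log2 ratio of 1.4 ± 0.46 (SE, edgeR adjusted p = 0.0739).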
